A study of Mus musculus with 48 samples.

Results

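Brain-derived neurotrophic factor (Bdnf), neurotrophin 3 (Ntf3) and the receptors of the neurotrophins, Ntrk2 (TrkB), Ntrk3 (TrkC) and Ngfr (p75NTR), were examined for DNA methylation in the amygdala of adult mice. Of the 187695 captured loci of the series, 41 overlapped the body of one of these 5 genes or the 5 kb on either side of it. Bdnf had 2 loci, Ntf3 had 4, Ntrk2 had 16, Ntrk3 had 9 and Ngfr had 10. A locus is a stretch of genome with a peak of captured DNA, and its count is the number of sequencing reads in it, so that a higher count stands for more methylated DNA captured there.

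The 6 groups crossed the genotypes Tph2+/+, Tph2+/- and Tph2-/- with standard rearing (C) and maternal separation (MS), with 8 male mice of 4 months of age and 1 library per mouse in each. Tph2 codes for the enzyme of serotonin synthesis in neurons, and the mice carried 2, 1 or 0 working copies of it from conception, in every cell, on a background labelled C57BL/6 (backcrossed to C57BL/6N, per the study's methods). MS pups spent 3 h of each day without their dam between postnatal days 2 and 15, and C pups were reared in the standard way. All mice, C and MS alike, were housed singly after weaning and passed through a battery of behavioral tests before the tissue was taken, and the amygdalae of both hemispheres of a mouse were pooled. Mice of a group may share a litter, which the labels do not give. The bulk tissue holds neurons and glia, and a change in the share of cells of a type cannot be told apart from a change of methylation within cells. Cell type markers were not checked, since captured DNA gives no RNA level. None of the 5 genes lies on the chromosome of Tph2.

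Neurotrophins are secreted growth factors that keep neurons alive in development and adjust synapses in the adult brain. BDNF acts through the receptor tyrosine kinase TrkB and neurotrophin 3 mainly through TrkC, while the unrelated receptor p75NTR binds all neurotrophins and their precursors. Bdnf is transcribed from several alternative first exons, each with a promoter of its own, that are all spliced to the same coding exon at the 3′ end. Its transcription in response to neuronal activity and early adversity has been studied in the amygdala and hippocampus, with attention to the promoter of exon IV.

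The total per library was 7.72 to 14.1 Mcounts (counts with the SI prefix mega), with a median of 10.7, and the 41 loci together took 1096 to 2369 counts of a library. Some features of the series touch the results below. Sample numbers in the labels follow rearing: S1 to S17 and S42 to S48 are all C and S18 to S41 are all MS, so MS cannot be compared with C within a stretch of numbers. The MS libraries are further divided here into S18 to S26 and S27 to S41. No label marks a break between S26 and S27. The division was taken over from an earlier account of these data, made with the CpG dependence of the libraries in view, and values by run describe these libraries and are no independent evidence of a batch. The slope of log2 counts on CpG density, taken over loci within a library, averaged 0.088 ± 0.085 (SD, n = 8) in S18 to S26 and -0.020 ± 0.035 (n = 17), -0.033 ± 0.041 (n = 14) and -0.048 ± 0.039 (n = 7) in S1 to S17, S27 to S41 and S42 to S48. Within S18 to S26 it was not uniform, and S25 (Tph2+/- MS replicate 2) had a slope of -0.0501. The fits used 46 libraries, since the study dropped a pair of Tph2-/- MS libraries as outliers without naming them in the sources used here. In their place replicates 3 and 7 of that group, which had its lowest totals (8.09 and 8.23 Mcounts), were omitted. These 2 libraries, S20 and S36, are also left out of the slope averages above. Their slopes were 0.319 (S20, in S18 to S26) and 0.115 (S36, in S27 to S41). The highest slope of the other libraries of S27 to S41 was 0.0205.

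The position of the loci along Bdnf is described first. The gene spans chr2:109674700-109727007 on the plus strand of GRCm38, and none of its 2 loci lay over the starts of exons I to VIII. Locus 1 (chr2:109723183-109724379) covered the shared coding exon, with 768 coding bases and 230 bases of untranslated exon among its 1197 bp. Locus 2 (chr2:109731747-109732568) lay downstream of the gene. The distances from a transcript start to the nearest locus were 20.6 kb for exon I, 30.7 kb for exon IV, 29.6 kb for exon VI and 13.8 kb for exon VIII. The start of exon IXA, which reads directly into the coding exon, was 262 bp from locus 1. The upstream regions of exons I and IV and the part of locus 1 with the most CpGs are shown as the regions without and with a locus, 5′ to 3′ on the plus strand, with each CpG in capitals. They are chr2:109674450-109674699 and chr2:109692186-109692435 (from the RefSeq promoter table, GRCm38.p6) and chr2:109723559-109723858.
Upstream of Bdnf exon I: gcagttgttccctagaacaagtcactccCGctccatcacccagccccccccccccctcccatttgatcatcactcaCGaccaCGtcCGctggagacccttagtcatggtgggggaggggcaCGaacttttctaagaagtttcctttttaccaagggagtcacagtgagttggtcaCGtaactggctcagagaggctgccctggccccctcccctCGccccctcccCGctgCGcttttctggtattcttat
Upstream of Bdnf exon IV: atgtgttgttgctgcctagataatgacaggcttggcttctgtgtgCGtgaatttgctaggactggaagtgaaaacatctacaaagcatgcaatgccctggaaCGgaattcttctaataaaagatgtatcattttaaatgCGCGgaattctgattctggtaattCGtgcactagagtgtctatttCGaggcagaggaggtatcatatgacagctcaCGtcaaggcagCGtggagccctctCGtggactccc
Bdnf locus 1: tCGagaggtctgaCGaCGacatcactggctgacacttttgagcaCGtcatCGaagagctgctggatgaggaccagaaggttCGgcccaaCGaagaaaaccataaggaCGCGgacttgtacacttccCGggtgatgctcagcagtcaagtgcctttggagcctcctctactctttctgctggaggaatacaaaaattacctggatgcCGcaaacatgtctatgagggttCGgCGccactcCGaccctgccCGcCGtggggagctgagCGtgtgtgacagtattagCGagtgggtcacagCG

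The promoter pieces held 9 CpGs each in 250 bases and the coding piece 19 in 300 bases. In the 1 kb centred on each start, exon I had 40.96 CpGs per kb, exon IV 26.97 and exon VI 68.9, while exons VIII and IXA had 7.99 and 12.99. Locus 1 itself had 31.7 CpGs per kb over its 1197 bp, denser than 96.2% of all loci. That stretch is not the 1 kb window of a start, so this density is not comparable with those of the starts. Of the 9 Bdnf starts 1, that of exon IXA, had a locus within 500 bp. Over 26032 RefSeq transcript starts of all genes the share was 10.9%, close to that of Bdnf. Over all genes it was 3.37% at starts with 40 or more CpGs per kb, 26.5% between 20 and 40, 29.4% between 10 and 20, and 6.35% below 10. The absence of a locus at a CpG-dense start was therefore common in these data, and exons II and IV fell in the class where 26.5% of starts had a locus. The table lists only peaks, so it gives no methylation value for the exons without a locus.

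**Figure D1:**
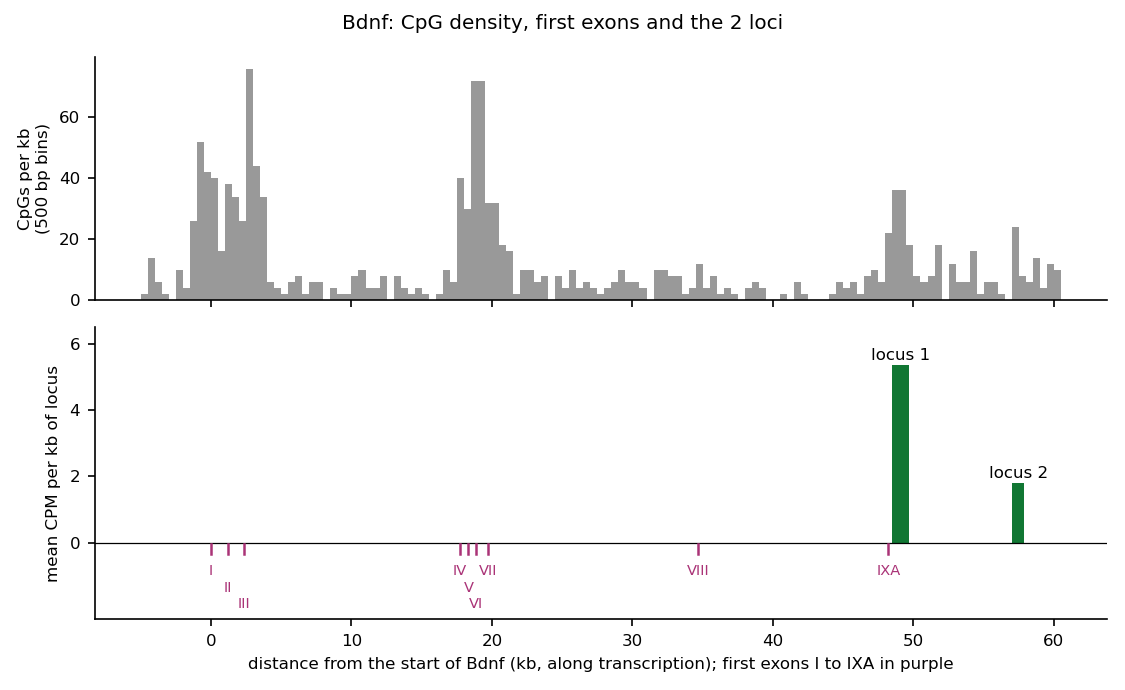
CpGs per kb in bins of 500 bp (upper panel) and mean CPM per kb of the 2 loci (lower panel) along Bdnf, in kb from the gene start in the direction of transcription. Purple ticks mark the 9 RefSeq starts, exons I to IXA. The CpG-dense stretches at exons I to III and IV to VII hold no locus, and the 2 loci stand at the coding exon (5.37 CPM per kb) and downstream (1.80 CPM per kb).

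Among the 5 genes, Ngfr stood out by how much of it was captured. Loci covered 48.6% of the Ngfr window (gene body with 5 kb on each side), more than in 98.6% of 21938 protein-coding genes. Of these genes 4712 had no locus. Loci covered 3.24% of the Bdnf window, 5.44% of Ntf3, 4.603% of Ntrk2 and 1.46% of Ntrk3, where the median of protein-coding genes was 7.15%. The windows ran from 28.9 kb for Ngfr to 572 kb for Ntrk3, and genes were not matched for length. Ngfr (chr11:95568818-95587735, minus strand) had 2 loci upstream, 4 over coding exons, 2 in introns and 2 downstream. Ngfr locus 2 (chr11:95587984-95589233) ended 249 bp upstream of the gene start and was poor in CpGs (8.80 per kb), whereas the 1 kb centred on the start itself had 52.9 CpGs per kb. Ntf3 (chr6:126101412-126166910, minus strand) resembled Bdnf in that a locus lay over its coding exon (locus 4, 762 coding bases, 26.3 CpGs per kb) and none near its 2 starts, 12.7 kb and 14.4 kb away. Its other 3 loci were intronic. Ntrk2 (chr13:58806569-59133970, plus strand) had 1 locus 559 bp upstream of its start (locus 1, chr13:58805378-58806010, 26.9 CpGs per kb), 3 over coding exons, 10 in introns and 2 in untranslated exon at the 3′ end. The 9 loci of Ntrk3 (chr7:78175959-78738012, minus strand) included 8 in introns and 1 in a non-coding exon, and 6 of them lay upstream of the RefSeq start, in the part of the gene that GENCODE alone annotates. The RefSeq extent with 5 kb on each side held 3 loci.

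A piece of each receptor is shown: the called locus of Ntrk2, the repeat locus with the most CPM per kb of the set, in Ntrk3, and the locus next to the Ngfr start. Each is the 300 bases of a locus with the most CpGs, 5′ to 3′ on the strand of the gene, CpGs in capitals. Ntrk2 locus 6 (piece chr13:59060162-59060461, plus strand) includes a coding exon of the tyrosine kinase part of the receptor. Ntrk3 locus 7 (piece chr7:78416125-78416424, minus strand) is intronic repeat sequence. Ngfr locus 2 (piece chr11:95588720-95589019, minus strand) is the locus before the Ngfr start.
Ntrk2 locus 6: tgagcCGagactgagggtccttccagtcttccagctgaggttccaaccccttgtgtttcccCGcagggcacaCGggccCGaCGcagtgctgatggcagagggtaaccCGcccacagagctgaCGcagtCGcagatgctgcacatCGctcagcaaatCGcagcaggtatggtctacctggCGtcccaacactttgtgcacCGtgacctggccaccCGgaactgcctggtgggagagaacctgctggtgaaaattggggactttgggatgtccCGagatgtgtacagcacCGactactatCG
Ntrk3 locus 7: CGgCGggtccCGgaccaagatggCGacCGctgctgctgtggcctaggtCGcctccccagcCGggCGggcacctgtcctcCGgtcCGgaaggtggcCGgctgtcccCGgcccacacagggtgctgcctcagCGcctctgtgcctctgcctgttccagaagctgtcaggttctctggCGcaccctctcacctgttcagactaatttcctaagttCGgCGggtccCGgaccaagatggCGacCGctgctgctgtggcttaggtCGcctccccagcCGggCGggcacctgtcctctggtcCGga
Ngfr locus 2: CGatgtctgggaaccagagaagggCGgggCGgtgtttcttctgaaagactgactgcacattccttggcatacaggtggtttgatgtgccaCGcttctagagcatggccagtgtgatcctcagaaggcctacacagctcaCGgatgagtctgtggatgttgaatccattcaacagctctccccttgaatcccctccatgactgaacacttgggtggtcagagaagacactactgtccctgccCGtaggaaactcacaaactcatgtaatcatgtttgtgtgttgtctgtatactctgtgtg

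The Ntrk3 piece opens with 42 bases that recur 212 bases further on, at position 213 counted from its 5′ end. Of Ntrk3 locus 7, 89.0% was repeat-masked, and 390 copies with at least 95% identity over at least 50% of its length were found elsewhere in the reference. Ntrk2 locus 9 (chr13:59106992-59108321) had 493 such copies and Ntrk2 locus 11 (chr13:59121019-59123809) had 186, and they were 74.7% and 83.4% masked. Reads of these loci may come from the copies. In all, 6 of the 41 loci were over 50% masked, 3 in Ntrk2 and 3 in Ntrk3, against 25.7% of all loci. They included the 4 loci of the receptors with the most CPM per kb. Their mean counts were 97.7 for Ntrk2 locus 9, 126 for Ntrk2 locus 11, 103.5 for Ntrk2 locus 12 and 117 for Ntrk3 locus 7.

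**Figure D2:**
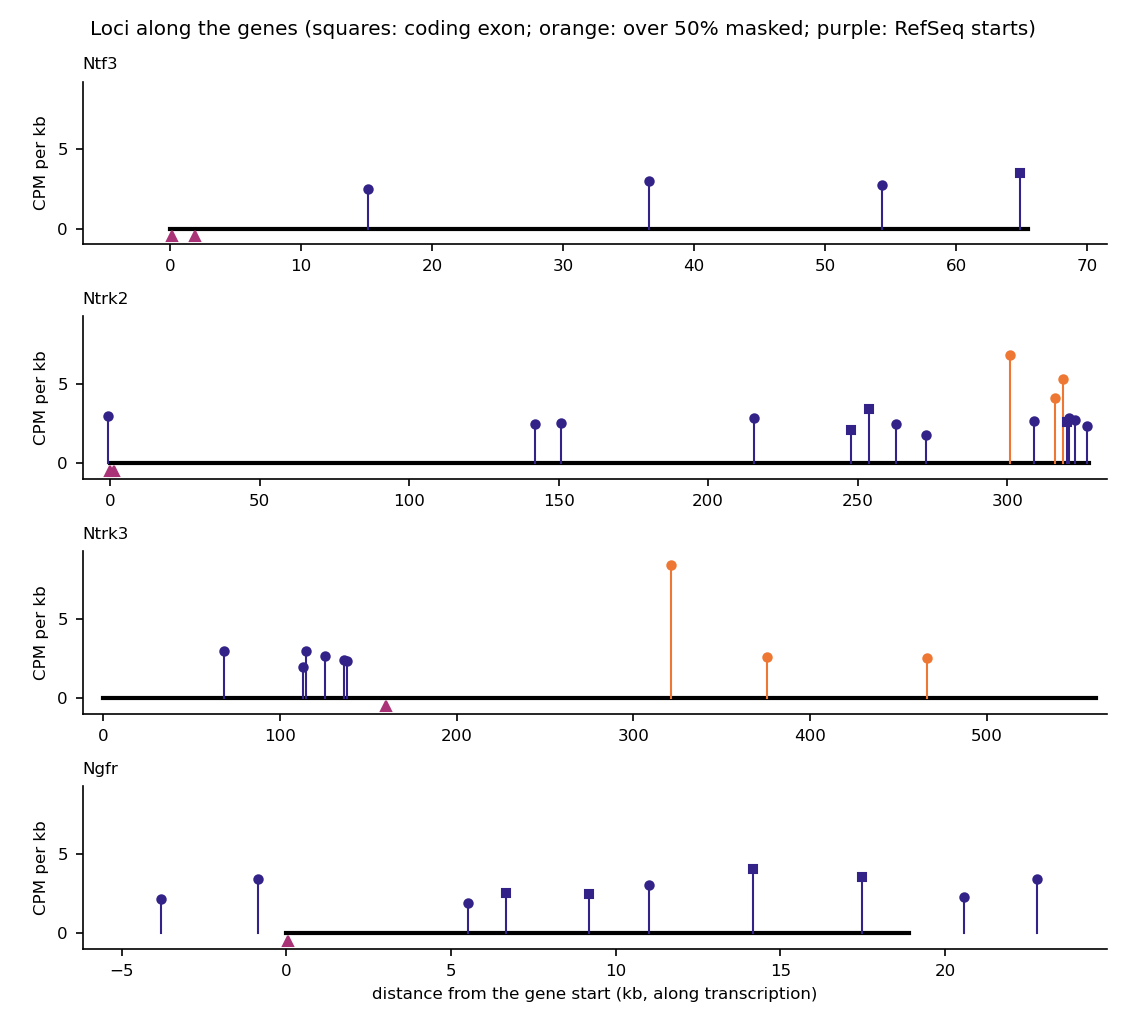
Loci of Ntf3, Ntrk2, Ntrk3 and Ngfr by distance from the gene start (kb, along transcription) and mean CPM per kb of the locus over 46 libraries. Squares are coding-exon loci, orange marks loci over 50% masked, and purple triangles are RefSeq starts. The highest points, Ntrk3 locus 7 at 8.41 and Ntrk2 locus 9 at 6.86 CPM per kb, are masked loci, and the loci of Ngfr, which cover 48.6% of its window, are spread from upstream to downstream of the gene.

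Levels per length were close among the genes. Over 46 libraries the sum of a gene's loci, in TMM-normalised CPM per covered kb, was 3.92 ± 0.73 (SD) for Bdnf, 3.59 ± 0.37 for Ntrk2, 3.55 ± 0.42 for Ntrk3, 3.14 ± 0.40 for Ngfr and 2.95 ± 0.41 for Ntf3. Each neighbouring pair in this order differed by less than the larger SD of the pair. Single loci ranged from 1.79 CPM per kb (Ntrk2 locus 8) to 8.41 (Ntrk3 locus 7), with a median of 2.71 against 2.76 over all loci. Bdnf locus 1 had 5.37 CPM per kb, above 94.97% of all loci, and Ntf3 locus 4 had 3.49, above 81.5%. Bdnf locus 2 had 1.80, which 0.692% of all loci did not exceed. The coding exons of both ligands were thus the loci of their genes with the most CPM per kb. They were also the densest in CpGs of their genes, and capture depends on CpG density. In CPM without regard to length, Ntf3 locus 2 (3.92) was above Ntf3 locus 4 (3.33).

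Bdnf was compared between groups at its coding exon first. At Bdnf locus 1 the lowest, median and highest library had 4.31, 6.27 and 8.69 CPM in Tph2+/+ C and 5.34, 7.48 and 9.86 in Tph2+/+ MS. They had 4.85, 5.67 and 7.69 CPM in Tph2+/- C, and 4.67, 6.46 and 9.502 in Tph2+/- MS. They had 4.61, 5.85 and 7.76 CPM in Tph2-/- C, and 4.05, 5.53 and 8.56 in Tph2-/- MS. All 6 groups overlapped, and the highest library of each MS group lay above that of its C group. The MS difference averaged over genotypes was 0.14 on the log2 scale (95% interval -0.03 to 0.31, adjusted p = 0.524, edgeR quasi-likelihood test). The sum of both Bdnf loci was 8.01 ± 1.13 CPM (SD, n = 8) in Tph2+/+ C, 8.78 ± 1.24 (n = 8) in Tph2+/+ MS, 7.55 ± 1.23 (n = 8) in Tph2+/- C, 8.13 ± 1.36 (n = 8) in Tph2+/- MS, 7.17 ± 1.21 (n = 8) in Tph2-/- C and 7.77 ± 2.58 (n = 6) in Tph2-/- MS. Against Tph2+/+, averaged over rearing, the Bdnf sum was -0.18 in Tph2-/- mice (interval -0.37 to 0.01, adjusted p = 0.967, edgeR) and -0.10 in Tph2+/- mice (interval -0.28 to 0.08, adjusted p = 0.999905). Neither passed a threshold. With the CpG slope of each library in the model the Tph2-/- difference was -0.24 (adjusted p = 0.999), past the unadjusted limits of the study.

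The Ntf3 sum passed no threshold in any comparison. Its sum was 12.2 ± 1.9 CPM (SD, n = 8) in Tph2+/+ C and 12.6 ± 1.4 (n = 8) in Tph2+/+ MS, 12.3 ± 1.3 (n = 8) and 12.1 ± 1.7 (n = 8) in Tph2+/- C and MS, and 11.3 ± 1.5 (n = 8) and 12.4 ± 2.5 (n = 6) in Tph2-/- C and MS. The MS difference averaged over genotypes was 0.06 log2 (interval -0.06 to 0.18, adjusted p = 0.652, edgeR). At the coding exon, Ntf3 locus 4, it was 0.15 (interval -0.06 to 0.35, adjusted p = 0.604).

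**Figure D3:**
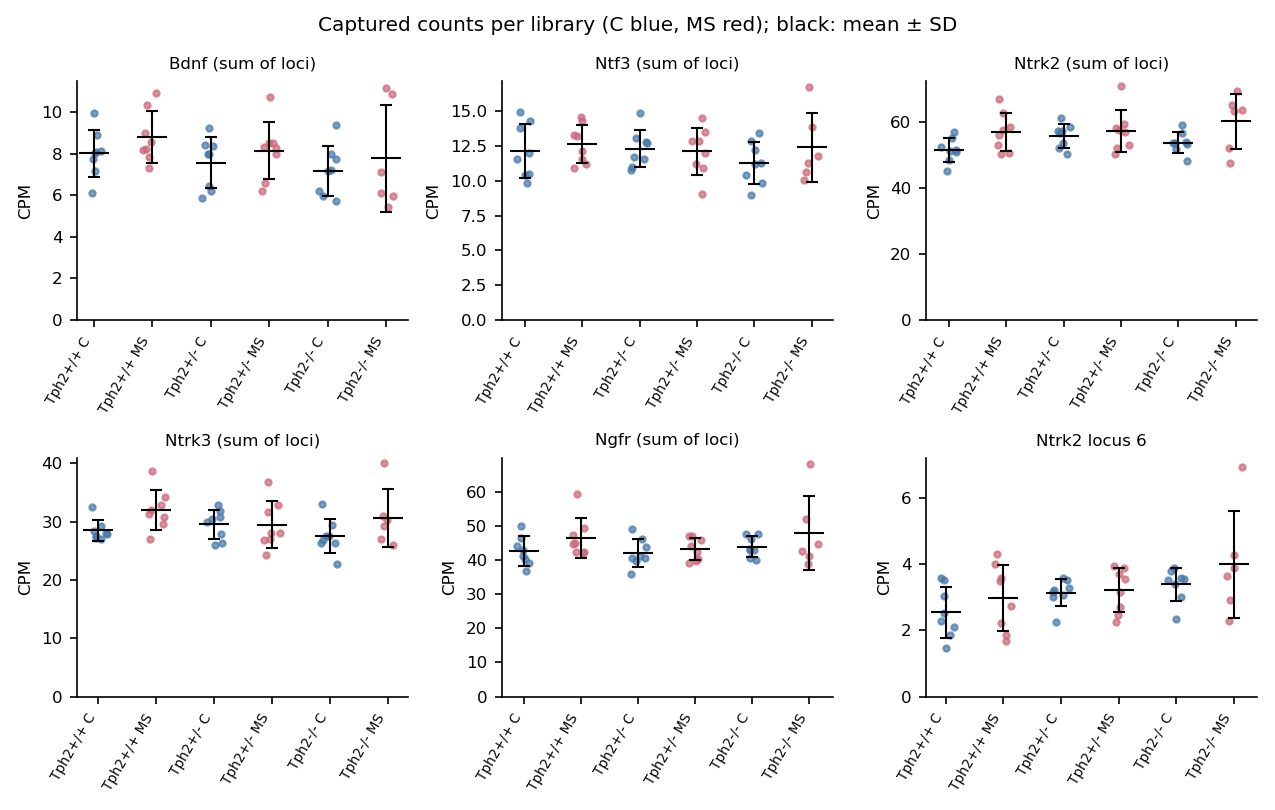
TMM-normalised CPM in each library (points), by group, for the sum of the loci of each gene and for Ntrk2 locus 6. C libraries are blue, MS libraries red, and black lines give the mean ± SD. The groups overlap in every panel, and the Tph2-/- MS group has the widest spread of all 5 gene sums.

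The receptor sums had higher means in MS than in C in each genotype, except Ntrk3 in Tph2+/- mice, and none passed an adjusted threshold. For MS averaged over genotypes 11 of 37004 genes passed an adjusted p under 0.05. Ntrk2, the BDNF receptor, had 51.5 ± 3.7 CPM (SD, n = 8) in Tph2+/+ C and 57.1 ± 5.8 (n = 8) in Tph2+/+ MS. It had 56.0 ± 3.6 (n = 8) in Tph2+/- C and 57.4 ± 6.4 (n = 8) in Tph2+/- MS, and 53.8 ± 3.2 (n = 8) in Tph2-/- C and 60.3 ± 8.5 (n = 6) in Tph2-/- MS. The ranges of C and MS overlapped in each genotype. Averaged over genotypes, the MS difference was 0.12 log2 (SE 0.04, adjusted p = 0.129, edgeR), under the 0.2 that the study asked for. It was 0.061 with library totals alone and 0.060 with a loess offset on abundance. The values of Ntrk3 and Ngfr given next moved likewise, to 0.049 and 0.047 for Ntrk3 and to 0.038 and 0.035 for Ngfr. The median over all gene sums moved as well, from 0.022 with TMM to -0.028 with library totals alone and 0.004 with loess. With TMM 58.1% of all genes were positive, and with library totals alone 39.7%. By genotype the Ntrk2 difference was 0.15 for Tph2+/+ (adjusted p = 0.673), 0.04 for Tph2+/- (adjusted p = 0.995) and 0.16 for Tph2-/- mice (adjusted p = 0.423). Exact permutation tests within a genotype (2-sided, unadjusted, 3 for each of the 5 genes) gave p = 0.0365 for Tph2+/+, 0.643 for Tph2+/- and 0.0966 for Tph2-/- mice.

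Ntrk3, the receptor of neurotrophin 3, had 28.5 ± 1.8 CPM (SD, n = 8) in Tph2+/+ C and 32.04 ± 3.4 (n = 8) in Tph2+/+ MS, 29.5 ± 2.5 (n = 8) and 29.4 ± 4.0 (n = 8) in Tph2+/- C and MS, and 27.5 ± 2.9 (n = 8) and 30.6 ± 5.0 (n = 6) in Tph2-/- C and MS. The MS difference over genotypes was 0.10 log2 (SE 0.05, adjusted p = 0.221, edgeR). The exact permutation p was 0.0152 for Tph2+/+, 0.875 for Tph2+/- and 0.182 for Tph2-/- mice. Ngfr had 42.6 ± 4.3 CPM (n = 8) in Tph2+/+ C and 46.5 ± 5.8 (n = 8) in Tph2+/+ MS, 42.1 ± 4.0 (n = 8) and 43.2 ± 3.3 (n = 8) in Tph2+/- C and MS, and 43.9 ± 3.0 (n = 8) and 47.9 ± 10.95 (n = 6) in Tph2-/- C and MS. Its MS difference over genotypes was 0.10 log2 (SE 0.05, adjusted p = 0.262, edgeR), and its exact permutation p was 0.135, 0.545 and 0.458 in Tph2+/+, Tph2+/- and Tph2-/- mice. The interactions GE1 and GE2, which compare the MS difference of Tph2+/- and Tph2-/- mice with that of Tph2+/+ mice, had adjusted p-values of 0.999622 (GE1) and 0.999792 (GE2) for each of the 3 receptors.

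These differences moved with the runs of sample numbers and with repeat sequence. The Ntrk2 sum averaged 63.9 ± 5.9 CPM (SD, n = 8) in S18 to S26 and 54.8 ± 4.4 (n = 14) in S27 to S41, the other MS run, against 54.8 ± 3.1 (n = 17) and 51.4 ± 4.5 (n = 7) in the C runs S1 to S17 and S42 to S48. Ntrk3 averaged 33.5 ± 4.4 CPM in S18 to S26, 29.1 ± 2.9 in S27 to S41, 28.9 ± 2.5 in S1 to S17 and 27.4 ± 2.2 in S42 to S48. Ngfr averaged 51.3 ± 8.5, 42.4 ± 2.6, 43.9 ± 3.4 and 40.5 ± 3.5 CPM in the same order. The lowest library of S18 to S26 had an Ntrk2 sum of 53.01 CPM, within the range of the other runs. Without S18 to S26 the MS differences were 0.02 for Ntrk2 (adjusted p = 0.976), 0.02 for Ntrk3 (adjusted p = 0.982) and -0.02 for Ngfr (adjusted p = 0.976). With the CpG slope as a term they were 0.05, 0.04 and 0.01 (adjusted p = 0.813, 0.916 and 0.972). All of S18 to S26 are MS, so these libraries and rearing cannot be told apart. Over the 46 libraries, which also differ in depth and capture, the log2 sum and the CpG slope had a Pearson r of 0.77 for Ntrk2, 0.62 for Ntrk3, 0.73 for Ngfr, 0.40 for Bdnf and -0.38 for Ntf3.

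The loci of the Trk receptors were then split by repeat masking. The 3 masked loci of Ntrk2 summed to 39.3 ± 6.8 CPM (SD, n = 8) in S18 to S26 and to 27.7 to 28.5 on average in the other 3 runs. The 13 others summed to 24.6 ± 2.6 in S18 to S26 and 26.3 ± 2.2 in S27 to S41, against 26.3 ± 2.5 in S1 to S17 and 23.7 ± 1.7 in S42 to S48. The 3 masked loci of Ntrk3 summed to 19.7 ± 4.8 CPM in S18 to S26 and to 11.7 to 13.3 on average in the other runs, while its 6 other loci summed to 13.8 ± 1.1 in S18 to S26 and to 15.6 to 15.97 elsewhere. Summed without masked loci, the MS difference was 0.01 for Ntrk2 (adjusted p = 0.928, edgeR) and -0.04 for Ntrk3 (adjusted p = 0.762). Ngfr has no masked locus, and its value was not affected (0.10, adjusted p = 0.319). Ntrk3 within its RefSeq extent, where all 3 loci are masked, had an MS difference of 0.27 (adjusted p = 0.201).

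**Figure D4:**
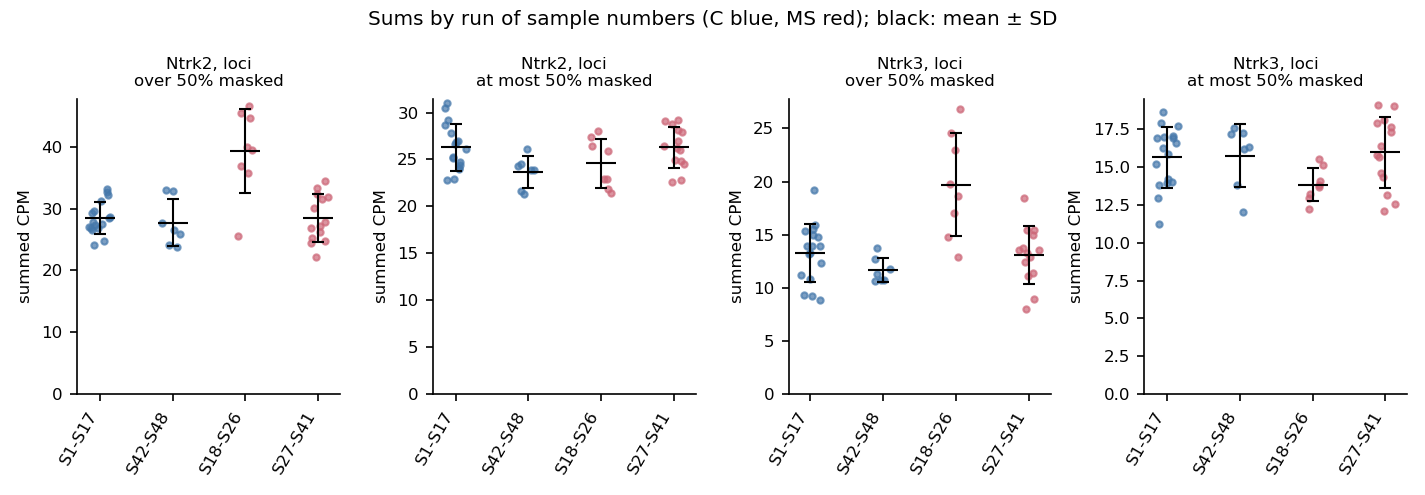
Summed CPM per library of the loci over and up to 50% repeat-masked in Ntrk2 and Ntrk3, by run of sample numbers. C runs are blue, MS runs red, and black lines give the mean ± SD. The masked loci are high in S18-S26 (39.3 and 19.7 CPM on average) and not in the other MS run, S27-S41 (28.5 and 13.1 CPM), while the unmasked loci average 24.6 and 13.8 CPM in S18-S26 and 26.3 and 15.97 in S27-S41.

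Locus by locus, calls were few, as over the whole table. At the study's limits, which ask for p below 0.01 before adjustment together with an absolute log2 fold change above 0.2, 0 of the 41 loci were called for MS in Tph2+/+ mice (1.31% of all loci), 0 in Tph2+/- (0.779%), 0 in Tph2-/- (1.48%), 0 for MS averaged over genotypes (3.63%), 0 for GE1 (0.626%), 0 for GE2 (0.558%), 0 for Tph2+/- against Tph2+/+ (0.546%) and 1 for Tph2-/- against Tph2+/+ (0.748%). None passed an adjusted p under 0.05 in edgeR. Of all 187695 loci 24 did for MS averaged over genotypes, 4 for Tph2+/- and 26 for Tph2-/- against Tph2+/+, and 0 otherwise. At an unadjusted p under 0.05 the counts ran from 0 of 41 for GE1 (3.71% of all loci) to 5 of 41 for MS averaged over genotypes (12.2%). For MS averaged over genotypes, 29 of the 41 loci had a positive difference (70.7%, median 0.06 log2) against 50.4% of all loci (median 0.00). With library totals alone as the scale 23 of 41 (56.1%) and 37.8% of all loci were positive, and the median of all loci moved to -0.05. All 6 masked loci were positive (median 0.16), and 23 of the 35 others (median 0.04), where 59.8% of all masked loci and 47.2% of all other loci were. Of the 27 loci denser in CpGs than the median locus 20 were positive, and of the 14 others 9. All loci of the table showed the same order, with 58.6% positive among those above the median density and 42.3% among the rest.

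For gene sums, none of the 5 genes was called at these limits in any comparison. Of 37004 genes with a locus, 1.43% were called for MS in Tph2+/+ mice, 0.662% in Tph2+/-, 2.16% in Tph2-/-, 3.29% for MS averaged over genotypes, 0.5% for GE1, 0.511% for GE2, 0.389% for Tph2+/- and 0.603% for Tph2-/- against Tph2+/+.

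The 1 called locus was Ntrk2 locus 6 (chr13:59059827-59060751, 24.9 CpGs per kb, 4.65% masked), over a coding exon of the kinase part, which full-length TrkB has, while the short RefSeq transcripts of Ntrk2 end before it. The windows of Ntrk2 and of the non-member gene 4930415C11Rik overlap here. The lowest, median and highest library had 1.48, 2.42 and 3.57 CPM in Tph2+/+ C and 1.68, 3.11 and 4.31 in Tph2+/+ MS. They had 2.27, 3.19 and 3.59 in Tph2+/- C and 2.27, 3.35 and 3.96 in Tph2+/- MS. They had 2.35, 3.54 and 3.88 in Tph2-/- C and 2.29, 3.77 and 6.94 in Tph2-/- MS. The groups overlapped, and the medians stood in the order Tph2+/+, Tph2+/-, Tph2-/- under both C and MS. The Tph2-/- difference from Tph2+/+ was 0.40 log2 (SE 0.14, interval 0.13 to 0.67, adjusted p = 0.999867, edgeR), and the Tph2+/- difference was 0.21 (interval -0.06 to 0.47, adjusted p = 1). With the run as a term, so that genotypes are compared within runs, it was 0.40 (adjusted p = 0.999851). The value moved with the libraries and terms used. With the CpG slope it was 0.32 (adjusted p = 0.999964), without S18 to S26 it was 0.19 (adjusted p = 0.999975), and with Tph2-/- MS replicates 2 and 3 omitted, and 7 kept, it was 0.24 (adjusted p = 0.999997). With the CpG slope, without S18 to S26 or with replicates 2 and 3 omitted, the locus did not pass the study's limits. The counts behind it were 13 to 60 per library, and the highest library, with 6.94 CPM, was of S18 to S26.

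Ngfr locus 3 (chr11:95581910-95582508, an intron, 10.02 CpGs per kb) had the lowest p of the interactions. Its medians were 1.02 and 1.19 CPM in Tph2+/+ C and MS, 1.43 and 1.19 in Tph2+/- C and MS, and 1.12 and 0.914 in Tph2-/- C and MS, from 1 to 28 counts per library. GE2 was -1.30 log2 (interval -2.33 to -0.27, adjusted p = 0.999999, edgeR), short of the limit. Without S18 to S26 it was -1.97 (adjusted p = 0.999), past the study's limits. Averaged over genotypes or rearing, other Ngfr loci with an unadjusted p under 0.05 were locus 5 for MS over genotypes (0.27, adjusted p = 0.312) and locus 6 for Tph2-/- against Tph2+/+ (0.23, adjusted p = 0.999867). In Ntrk2 they were locus 9 (0.38, adjusted p = 0.28), locus 12 (0.18, adjusted p = 0.383) and locus 15 in the 3′ untranslated exon (-0.24, adjusted p = 0.388) for MS over genotypes, and locus 13 for Tph2+/- against Tph2+/+ (0.32, adjusted p = 1). In Ntrk3 they were locus 7 for MS over genotypes (0.30, adjusted p = 0.367) and locus 5 for Tph2+/- against Tph2+/+ (-0.43, adjusted p = 1). Within single genotypes the MS difference had such a p at Ntrk2 locus 9 in Tph2+/+ mice (0.53, adjusted p = 0.756), at Ntrk2 locus 2 in Tph2+/- mice (0.60, adjusted p = 0.999723), and in Tph2-/- mice at Ntrk2 locus 15 (-0.47, adjusted p = 0.688) and Ngfr loci 3 (-0.83, adjusted p = 0.693), 5 (0.42, adjusted p = 0.693) and 6 (0.32, adjusted p = 0.688). Adjusted p-values were 0.280 or higher in each of these. Without S18 to S26 the value was 0.05 at Ngfr locus 5 for MS over genotypes and 0.04 there in Tph2-/- mice, 0.08 at Ntrk2 locus 9 in Tph2+/+ mice, and -1.43 at Ngfr locus 3 in Tph2-/- mice, the last past the study's limits. Ngfr locus 2 and Ntrk2 locus 1, the loci next to the receptor starts, had MS differences of 0.09 (interval -0.11 to 0.29) and -0.01 (interval -0.26 to 0.25), so changes beyond 0.29 and 0.26 log2 lie outside these intervals.

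**Figure D5:**
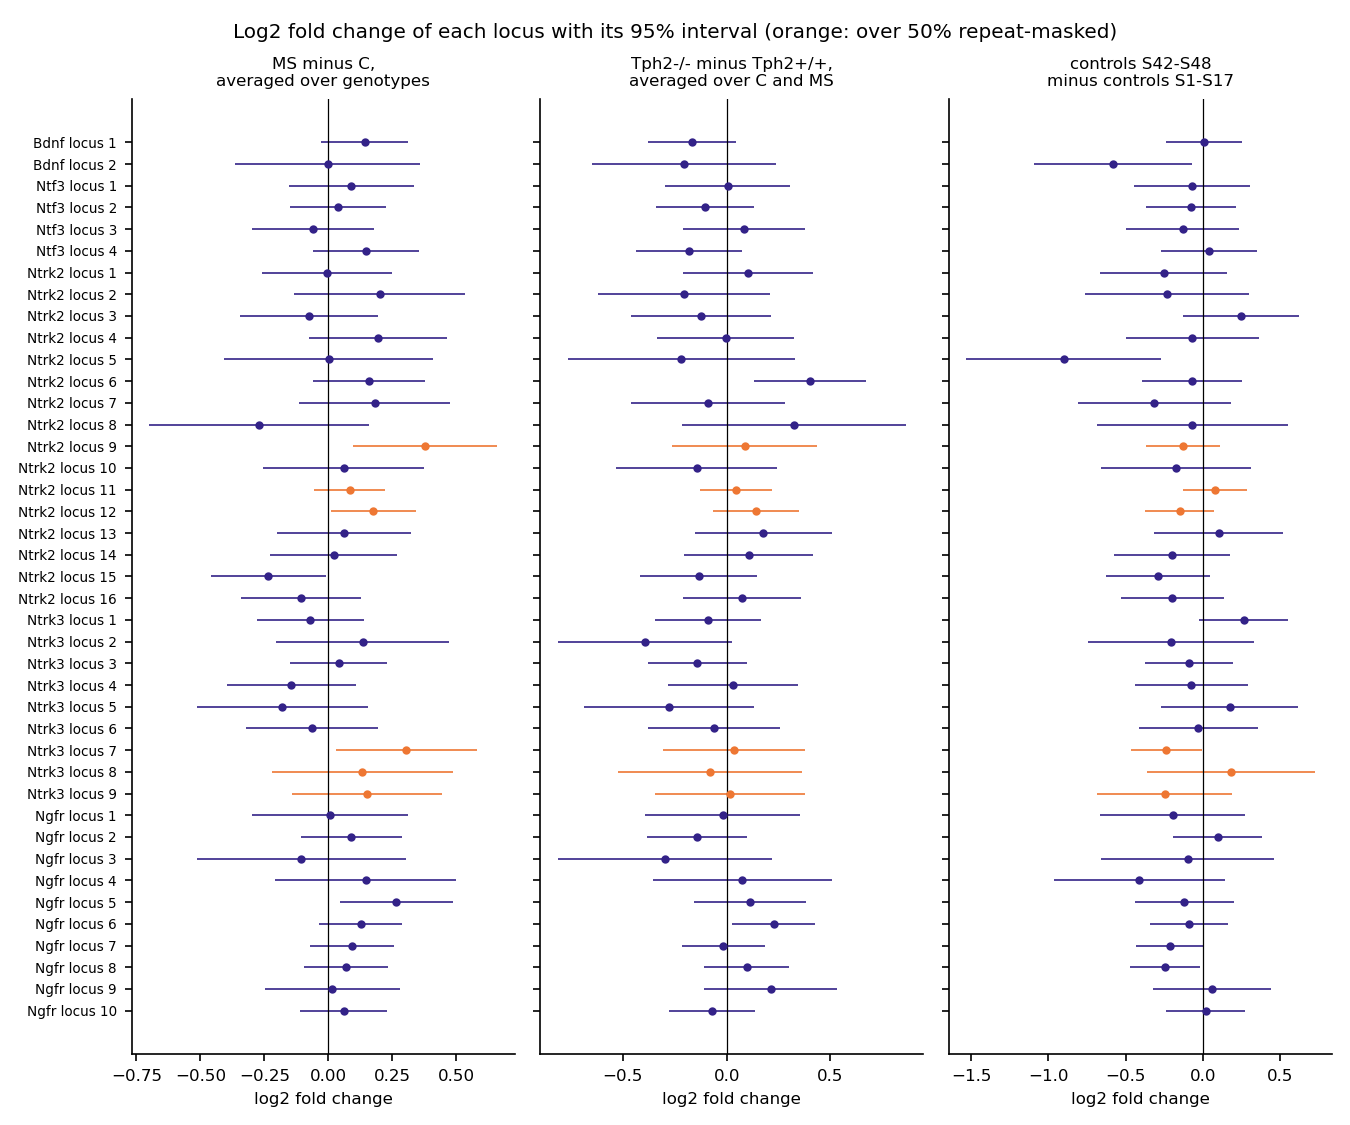
Log2 fold change of each of the 41 loci with its 95% interval for MS minus C over genotypes, Tph2-/- minus Tph2+/+ over rearing, and controls S42-S48 minus controls S1-S17. Orange marks loci over 50% masked. All 6 masked loci lie to the right of 0 for MS, 1 interval of the Tph2-/- comparison that passes the study's limits is that of Ntrk2 locus 6, and 30 of 41 loci lie to the left of 0 between the control runs.

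The controls alone show how far these loci differ without MS. Between C libraries of S42 to S48 and of S1 to S17, with genotype in the model, 30 of 41 loci were lower (median -0.10 log2) where 50.2% of all loci were higher. The 1 called, Ntrk2 locus 5 over a coding exon, was -0.90 (SE 0.32, adjusted p = 0.253, edgeR), and 3.29% of all loci were called. Of the gene sums, where 4.1% of all genes were called, none of the 5 was. All 5 were lower in the late controls, by -0.05 (Ntf3) to -0.12 (Ngfr), with adjusted p = 0.277 for Ngfr and adjusted p = 0.343 for Ntrk2. For Ntrk2, Ngfr, Bdnf and Ntf3 this difference between runs of controls was of about the size of the MS difference, with the opposite sign to that of MS. For Ntrk3 it was -0.07 against 0.10 for MS. With a term for the late controls the MS difference was 0.09 for Ntrk2 (adjusted p = 0.384), 0.09 for Ntrk3 (adjusted p = 0.501) and 0.06 for Ngfr (adjusted p = 0.647).

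Of 74 other genes of the neurotrophin pathway, 60 had a locus and 14 had none. For MS averaged over genotypes 1 of 60 was called (3.29% of all genes), and 33 of 60 were positive (median 0.02 log2) where 58.1% of all genes were. By role, a positive difference was found for 16 of 29 adaptors and signalling genes, 5 of 7 genes of ligand processing and sorting, 4 of 6 receptors, 3 of 6 partners of p75NTR, 1 of 2 ligands and 4 of 10 regulators of Bdnf transcription. An unadjusted p under 0.05 (edgeR) was found for 10 of the 60, against 17.9% of all genes. These were 4 of 29 adaptors and signalling genes, 4 of 6 receptors, 1 of 2 ligands and 1 of 10 regulators of Bdnf transcription. For Tph2+/- against Tph2+/+ 1 of 60 was called (0.389% of all genes), Hap1, which takes part in BDNF transport, at 0.32 (adjusted p = 0.999905). In the other 6 comparisons 0 of 60 were called, and in 5 of these the smallest unadjusted p belonged to Crtc1, a coactivator of CREB, for MS in Tph2+/- (0.22, adjusted p = 0.995), Akt1 for MS in Tph2-/- mice (0.27, adjusted p = 0.423), Furin, a proprotein convertase, for GE1 (0.23, adjusted p = 0.999622), Plg for GE2 (-0.23, adjusted p = 0.999792) and Usf1 for Tph2-/- against Tph2+/+ (-0.25, adjusted p = 0.967). Between the control runs 3 of 60 were called, where 4.1% of all genes were: Ntf5, the gene of neurotrophin 4 (-0.33, adjusted p = 0.0330), Shc1 (-0.30, adjusted p = 0.0654) and Braf (0.73, adjusted p = 0.0756). Ntf5 was thus the single listed gene to pass an adjusted threshold, and it did so between groups of C mice.

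Over the 46 libraries, the gene sums most like each member, by Pearson r of log2 CPM among genes with a mean sum of at least 100 counts, were Tmem151b (0.62) and Gm7075 (0.61) for Bdnf, Gm26510 (0.52) and 4930422I22Rik (0.52) for Ntf3, Phlpp1 (0.83) and Gm25476 (0.83) for Ntrk2, Gm47437 (0.74) and Ttc39c (0.74) for Ntrk3, and Ccdc106 and Zfp865, which share the same 3 loci (0.85), for Ngfr. For Ntrk2 1% of 15963 genes had an r above 0.78, and for Ntf3 above 0.38. The sums share libraries that differ in depth and capture, so r is a description. Among the 5 genes r was highest between Ntrk3 and Ngfr (0.61) and between Ntrk2 and Ngfr (0.58), 0.44 between Bdnf and Ntrk2, and -0.13 between Bdnf and Ntf3.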

How the data were processed

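DNA from the amygdala of 48 mice (1 library each) was sonicated, enriched for methylated fragments by a methyl-CpG-binding domain and sequenced as pairs of 50 bp reads. The authors mapped the reads with Bowtie2 2.1.0 to GRCm38, called peaks with MACS, merged peaks over libraries and counted reads with DiffBind 2.0.9. The deposited values are raw read counts per merged peak and library, with no normalization. Duplicate and multiply mapped reads may be included, since their treatment is not given in the sources used here. Capture depends on CpG density.

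Gene positions, exons and repeat masking came from GENCODE M21 and the RefSeq GRCm38.p6 assembly. Counts were tested with edgeR 4.0.16 in R 4.3.3 (TMM, trended dispersion, robust quasi-likelihood F-test, 1 term per group, 8 contrasts, 46 libraries) for all loci and for sums over all genes, with Benjamini-Hochberg adjustment over all of them. Intervals are 1.96 SE to each side. Exact permutation tests used log2(CPM + 0.1). P-values measure the spread between single mice. Rearing was assigned by litter, per the study's methods, and the labels do not give the litters. The MS p-values treat mice of a litter as independent and may be too small. Copies of loci were sought with minimap2 2.31. DESeq2 1.42.0 and the other settings are described in the closing section, and leaving out repeat-masked loci and the RefSeq extent of Ntrk3 were added after seeing the data. The genes, the pathway list and the rules for naming loci (all loci of Bdnf, Ntf3 and Ngfr by count or value, those of Ntrk2 and Ntrk3 near starts, with the highest count or smallest p, and every called locus; pathway genes by call or smallest p) were chosen with earlier results of these data known, as was the division of the MS libraries at S26. Some pathway genes are counted but not reported here by name.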

Additional observations from a re-analysis of the deposited data

Results flagged for a closer look

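In 12 of 84 checks (14 gene sums or loci in 6 groups) a single library stood apart from the rest of its group by Dixon's 95% value. About 1 in 20 is given by chance in independent checks. These are not independent, since a gene sum contains the checked loci of its gene. The values are in CPM. For gene sums, Ntrk2 had 71.1 in Tph2+/- MS replicate 1 (nearest other library 59.4), Ntrk3 had 32.5 in Tph2+/+ C replicate 4 (29.3) and 40.02 in Tph2-/- MS replicate 2 (30.9), and Ngfr had 59.2 in Tph2+/+ MS replicate 1 (49.4). At Ntrk2 locus 9 and Ntrk3 locus 7, both repeat-masked, Tph2+/- MS replicate 1 stood apart as well, with 17.3 (10.4) and 19.5 (12.6). Ngfr locus 5 had 8.79 in Tph2-/- MS replicate 2 (4.72) and 6.33 in Tph2+/+ MS replicate 1 (4.14). All the MS libraries that stood apart were S19, S21 or S22, of the run S18 to S26. Among C libraries, Ntf3 locus 4 had 2.30 in Tph2+/+ replicate 2 (3.13) and 4.21 in Tph2+/- replicate 7 (3.23), Ntrk2 locus 6 had 2.27 in Tph2+/- replicate 3 (3.02), and Ngfr locus 3 had 2.39 in Tph2-/- replicate 2 (1.37). None of the 92 GE1 and GE2 interactions of the 41 loci and 5 gene sums passed the study's limits.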

How the results depend on the processing

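Of 663 alternative values of the gene sums 57 changed sign, counted as a reversal only for the 4 where either value had an unadjusted p under 0.05. A value that kept its sign counted as unchanged unless it crossed the study's limits, which no gene sum passed in the edgeR fit above. By these rules 656 counted as unchanged, sign changes with neither p under 0.05 included, as did 190 of 203 values of named loci. This number therefore says little about size. Ntrk2 for MS over genotypes was 0.12 in the edgeR fit and 0.012 to 0.14 in the alternatives, all counted as unchanged. All but 9 of the counts of called loci were equal or within a set ratio. Of 20 exact tests 19 kept their direction and their side of p = 0.05. The number of the 41 loci called for MS in Tph2-/- mice was 3 with all 48 libraries (5.37% of all loci called), 1 with Tph2-/- MS replicates 2 and 3 omitted instead of 3 and 7 (0.855%), and 2 without S18 to S26 (1.18%). For MS over genotypes it was 1 with DESeq2 (4.15%) and 2 with all 48 libraries (5.79%), for GE2 it was 1 without S18 to S26 (0.855%), and for Tph2-/- against Tph2+/+ it was 0 with replicates 2 and 3 omitted (0.634%), 0 without S18 to S26 (0.653%) and 0 with the CpG slope (0.899%). Among gene sums (log2), Bdnf for Tph2-/- against Tph2+/+ was -0.24 with the CpG slope (0.646% of all genes called), and with all 48 libraries MS in Tph2-/- mice was 0.24 for Ntrk2 (adjusted p = 0.0843, edgeR) and 0.35 for Ntrk3 (adjusted p = 0.103), where 8.29% of all genes were called. The exact permutation test of Ntrk2 in Tph2-/- mice gave 0.23 (p = 0.0287) with all 48. Without repeat-masked loci MS turned to -0.028 for Ntrk2 and -0.028 for Ntrk3 in Tph2+/+ mice and to -0.042 for Ntrk3 over genotypes. Without S18 to S26 MS over genotypes turned to -0.023 for Ngfr, -0.016 at Ntrk2 locus 12, -0.016 at Ntrk2 locus 9 and -0.13 at Ntrk3 locus 7, and the last was -0.031 with the CpG slope. Beyond the libraries or loci removed, the cause was not tested. Library totals alone moved the median MS difference of all loci in Tph2+/+ mice from 0.01 to -0.11. Replicate numbers did not pair the libraries: 110 same-numbered pairs had a median correlation of 0.01 (-0.20 to 0.32), and 9 of 46 libraries matched best with their own number. The replicate block changed no call, and Ntrk2 for MS over genotypes was 0.11 with it (adjusted p = 0.118). The MS comparison has no value with the run as a term, since no run holds both, and the break between S26 and S27 in that term is in no label.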
